A study of Mus musculus with 27 samples.

Results

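This report describes 7 genes known from pericytes (Kcnj8, Abcc9, Rgs5, Higd1b, Atp13a5, Vtn and Kcne4) among the 40129 genes listed for mouse retina. They were chosen by symbol as known pericyte genes and selected on normalized reads in these mice, several of them being low in OIR retinas at p14 and high at p17, so their levels in OIR mice are part of how they were chosen and are given as values without a test. All 7 were found in the table and all 7 passed the minimum mean of 1 normalized read. Oxygen-induced retinopathy (OIR) is a mouse model of abnormal vessel growth. Pups are held in raised oxygen, under which vessels in the centre of the retina regress. In room air the retina is then short of oxygen at p14, and new vessels have grown by p17. Whole retinas of wild-type mice (C57BL/6 in the labels, C57BL/6J in the methods of the study) were sequenced as bulk RNA at postnatal day 14 (p14) and 17 (p17), from untreated mice kept in room air (nOIR) and from OIR mice of the same ages, with 6 OIR and 6 nOIR mice at p14 and 8 OIR and 6 nOIR mice at p17 used in the comparisons. A further nOIR p14 mouse, S4, was left out as in the methods of the study. A sample held 1 retina or both retinas of a mouse, mice came from several litters, and the litter of each mouse is not given in the labels, so the errors describe the spread between mice only. Values are normalized reads, that is counts divided by 1 size factor per mouse, from libraries of 17029536 to 33593428 reads.

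Pericytes are the mural cells that wrap the capillaries of the retina and share a basement membrane with the endothelium. They are recruited to new vessels by endothelial PDGF-B, stabilize the capillary wall, take part in the control of capillary flow and are needed for the blood-retina barrier. Kcnj8 and Abcc9 encode the pore (Kir6.1) and the sulfonylurea receptor (SUR2) of the ATP-sensitive potassium (KATP) channel of vascular mural cells. Rgs5 encodes a GTPase-activating protein that shortens signalling by G protein-coupled receptors, Higd1b encodes a mitochondrial protein of the hypoxia-inducible domain family, and Kcne4 encodes an accessory subunit of voltage-gated potassium channels. Atp13a5 encodes a P5-type transport ATPase, and Vtn encodes vitronectin, a secreted matrix glycoprotein that binds integrins. In whole retina, fewer pericytes and less RNA per pericyte cannot be told apart.

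The sequences in front of the start sites are shown because 5 members (Kcnj8, Abcc9, Rgs5, Higd1b and Kcne4) had one shared order of mean levels over the groups while Atp13a5 had another. For Kcne4 that order rests on 1 mouse, nOIR p17 S3. Without S3 its nOIR p17 mean was 5.94 normalized reads, below the 12.6 of OIR p14. They are the 250 bases before the RefSeq start on GRCm38.p6, 5′ to 3′ on the strand of the gene, in lower case, with capitals where a searched motif lies. RefSeq promoters were matched for 6 of the 7 members, all but Higd1b. The motifs were ACGTG and GCGTG (cores of hypoxia response elements), TGGGAA (a core of the RBPJ site of Notch signalling), TGTTTAC (forkhead factors) and the CArG box of serum response factor, each on both strands. Kcnj8 and Abcc9 are neighbours on chromosome 6, with starts 130660 bases apart, and both lie on the minus strand. Their windows are chr6:142571615-142571864 and chr6:142702275-142702524. Rgs5 lies at chr1:169655251-169655500 and Kcne4 at chr1:78816661-78816910, both on the plus strand, and Atp13a5 at chr16:29378733-29378982 on the minus strand.
Kcnj8: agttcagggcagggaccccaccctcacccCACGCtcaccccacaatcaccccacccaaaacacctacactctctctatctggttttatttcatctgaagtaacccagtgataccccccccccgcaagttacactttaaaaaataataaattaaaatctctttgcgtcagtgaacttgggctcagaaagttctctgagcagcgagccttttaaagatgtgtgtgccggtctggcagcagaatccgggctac
Abcc9: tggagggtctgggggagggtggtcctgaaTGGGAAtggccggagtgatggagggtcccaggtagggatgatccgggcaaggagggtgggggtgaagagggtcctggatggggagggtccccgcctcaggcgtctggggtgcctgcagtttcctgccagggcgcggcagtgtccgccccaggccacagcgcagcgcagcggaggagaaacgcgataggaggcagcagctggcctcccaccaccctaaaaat
Rgs5: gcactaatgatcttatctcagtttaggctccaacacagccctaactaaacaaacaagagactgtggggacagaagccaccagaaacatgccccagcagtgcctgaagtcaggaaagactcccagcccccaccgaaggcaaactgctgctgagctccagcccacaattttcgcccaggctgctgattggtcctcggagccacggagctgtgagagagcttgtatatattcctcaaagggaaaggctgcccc
Kcne4: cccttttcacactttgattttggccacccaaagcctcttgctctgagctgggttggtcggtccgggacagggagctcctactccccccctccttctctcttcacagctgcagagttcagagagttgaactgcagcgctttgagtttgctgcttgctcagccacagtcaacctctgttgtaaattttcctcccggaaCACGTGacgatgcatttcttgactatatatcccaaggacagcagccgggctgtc
Atp13a5: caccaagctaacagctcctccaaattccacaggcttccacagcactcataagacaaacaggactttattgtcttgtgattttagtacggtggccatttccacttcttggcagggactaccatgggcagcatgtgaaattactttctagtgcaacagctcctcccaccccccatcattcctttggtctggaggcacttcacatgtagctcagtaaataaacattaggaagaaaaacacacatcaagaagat

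No 2 of the 5 printed windows (Kcnj8, Abcc9, Rgs5, Kcne4 and Atp13a5) held the same searched motif. In Kcnj8 the capitals mark GCGTG on the opposite strand, 221 to 217 bases before the start, and 28.2% of 32851 RefSeq promoters of this length hold that motif. In Abcc9 they mark TGGGAA, 221 to 216 bases before the start, a motif held by 21.6% of promoters. In Kcne4 they mark the palindrome CACGTG, 54 to 49 bases before the start, which holds ACGTG on both strands and was counted as 2 overlapping matches. ACGTG was held by 16.6% of promoters. The Vtn window (chr11:78498870-78499119, plus strand) held GCGTG and TGGGAA, and no member held TGTTTAC (3.17% of promoters) or a CArG box (1.47%). The windows of Rgs5 and Atp13a5 held no searched motif. These matches are descriptions of letters in these windows.

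In OIR retinas at p14 the members were low. On the log2(normalized reads + 1) scale their median difference from nOIR p14 was -1.27, beside 0.02 over the 27137 genes tested. That median is the value of Kcne4, which was counted from few reads. For 5 of the 7 (Kcnj8, Abcc9, Rgs5, Higd1b and Atp13a5) every OIR mouse was below every nOIR mouse, as for 1.86% of all genes tested. In OIR p17, 4 of these 5 were high, and Atp13a5 alone among them was still low. At p17 the median of the members was 1.36 above nOIR, beside -0.02 over all genes, with 4 members higher without overlap (3.9% of all genes tested) and 1, Atp13a5, lower without overlap (1.98%). Since these levels chose the members, nothing is read from these counts.

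**Figure D1:**
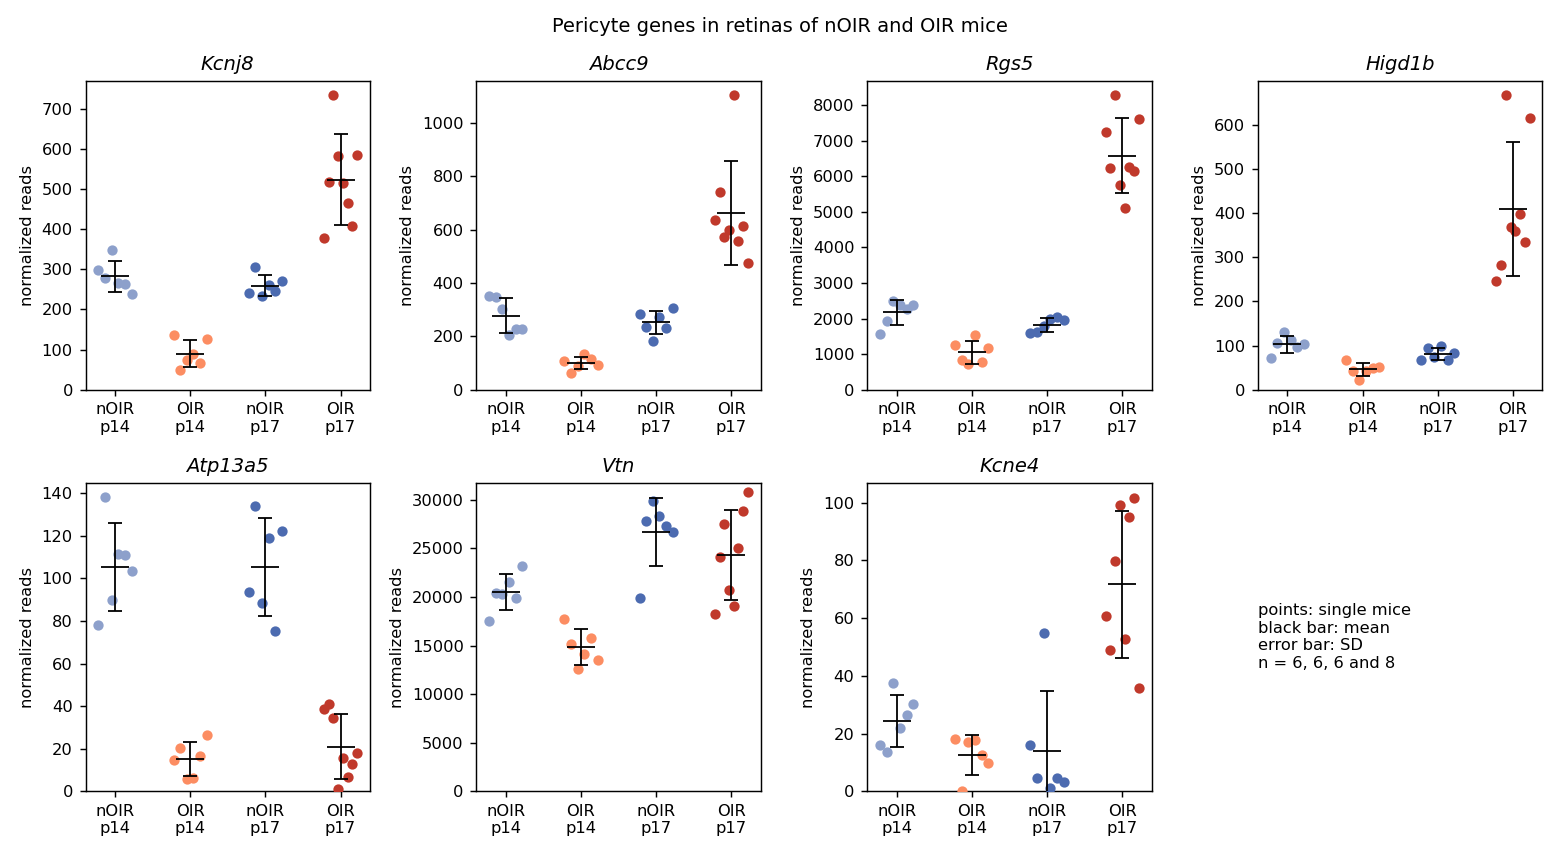
Normalized reads (linear axis from 0) of the 7 pericyte genes in single mice (points) of the 4 groups, with the mean (black bar) and SD (error bar). OIR p14 is the lowest and OIR p17 the highest group for Kcnj8, Abcc9, Rgs5 and Higd1b, whereas Atp13a5 is low in both OIR groups, with means of 15.1 and 21 beside 105.3 and 105.4 in nOIR mice.

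Kcnj8, the channel pore, stood at 282.3 ± 38.1 normalized reads in nOIR p14 (mean ± SD, n = 6), with a lowest, median and highest mouse of 239.7, 271.7 and 349.0. In OIR p14 it had 90.1 ± 34.7 (n = 6), from 48.3 over a median of 81.2 to 135.4. The highest OIR p14 mouse thus lay below the lowest nOIR p14 mouse, and the mean was 31.9% of that of nOIR p14. In nOIR p17 it had 259.3 ± 26.1 (n = 6, range 233.3 to 304.9, median 253.1), and in OIR p17 523.4 ± 113.6 (n = 8, range 378.0 to 735.2, median 516.9). All 8 OIR p17 mice were above all mice of the other 3 groups. The log2 difference from age-matched nOIR was -1.72 (SE 0.19) at p14 and 0.99 (SE 0.18) at p17.

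Abcc9, the regulatory subunit of the same channel, had the same order of groups. Its levels were 277.2 ± 65.1 normalized reads in nOIR p14 (n = 6, lowest 206.7, median 265.7, highest 352.5) and 99.5 ± 23.6 in OIR p14 (n = 6, range 64.4 to 132.2, median 98.6). At p17 they were 252.4 ± 43.8 in nOIR (n = 6, range 184.4 to 304.9, median 254.1) and 662.2 ± 194.6 in OIR (n = 8, range 473.2 to 1105, median 607.0). OIR p14 lay wholly below and OIR p17 wholly above both nOIR groups, which overlapped each other. The log2 difference was -1.47 (SE 0.19) at p14 and 1.36 (SE 0.18) at p17. One OIR p17 mouse, S5, stood apart at 1105 normalized reads, and without it the mean of the group was 599.0 ± 82.5 (n = 7). Of 8373 exon bases of Abcc9 in the GENCODE M21 annotation, 1.89% overlap a gene on the other strand, 5330439B14Rik, whose reads cannot be told apart from those of Abcc9 in libraries that do not keep the strand.

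The reads of Abcc9 per read of Kcnj8, a ratio that also depends on transcript length and is compared here only between groups, were 0.981 ± 0.188 (SD, n = 6) in nOIR p14 and 1.21 ± 0.40 (n = 6) in OIR p14. At p17 the ratio was 0.977 ± 0.172 (n = 6) in nOIR and 1.32 ± 0.47 (n = 8) in OIR mice. The ranges of the 4 groups overlapped. The KATP subunits of neurons and endocrine cells, Kcnj11 (Kir6.2) and Abcc8 (SUR1), did not pass the test at either age (limma, adjusted p of 0.05). Kcnj11 had 83.8 and 74.1 normalized reads in nOIR and OIR mice at p14 and 90.1 and 90.3 at p17, and Abcc8 739.8 and 796.5 at p14 and 714.9 and 755.2 at p17.

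Rgs5 had 2180 ± 353 normalized reads in nOIR p14 (n = 6, lowest 1580, median 2330, highest 2507) and 1046 ± 324 in OIR p14 (n = 6, range 721 to 1530, median 997). At p17 it had 1828 ± 194 in nOIR (n = 6, range 1587 to 2033, median 1868) and 6576 ± 1053 in OIR mice (n = 8, range 5096 to 8296, median 6235). The lowest OIR p17 mouse had more than the highest mouse of any other group. The mean of OIR p17 was 3.60 times that of nOIR p17 and 6.29 times that of OIR p14. The log2 difference from nOIR was -1.10 (SE 0.15) at p14 and 1.84 (SE 0.14) at p17.

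Higd1b had the same order of groups with a larger span. It had 103.5 ± 19.2 normalized reads in nOIR p14 (n = 6, lowest 71.9, median 104.3, highest 130.5) and 46.0 ± 15.4 in OIR p14 (n = 6, range 21.2 to 68.3, median 46.6), and the ranges did not overlap. At p17 it had 80.4 ± 13.5 in nOIR (n = 6, range 66.8 to 98.1, median 77.9) and 408.7 ± 151.8 in OIR mice (n = 8, range 245.8 to 667.0, median 364.1). The mean of OIR p17 was 5.08 times that of nOIR p17 and 8.88 times that of OIR p14, while nOIR p17 overlapped both p14 groups. The log2 difference from nOIR was -1.21 (SE 0.24) at p14 and 2.27 (SE 0.22) at p17.

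Kcne4 was counted from few reads, and its 4 groups overlapped their neighbours in order of level. It had 24.3 ± 8.95 normalized reads in nOIR p14 (n = 6, lowest 13.7, median 24.2, highest 37.4) and 12.6 ± 7.00 in OIR p14 (n = 6, range 0 to 18.2, median 14.9), where 3 of 6 OIR mice lay below all nOIR mice. The mouse at 0, S2, allows a level of up to 3.22 normalized reads, the value of 3 reads in that library. In nOIR p17 it had 14.1 ± 20.6 (n = 6, range 1.10 to 54.7, median 4.59) and in OIR p17 71.7 ± 25.5 (n = 8, range 35.8 to 101.5, median 70.2). A single nOIR p17 mouse, S3, held 54.7, and the other 5 had 5.94 ± 5.92, so that 5 of 8 OIR p17 mice lay above all nOIR p17 mice and all 8 above all but S3. The log2 difference was -1.27 (SE 0.64) at p14 and 3.10 (SE 0.60) at p17. It was -0.61 at p14 without OIR p14 mouse S2, 3.66 at p17 without nOIR p17 mouse S3, and 2.32 at p17 when edgeR was run on the recovered reads.

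Atp13a5 was low in OIR mice at both ages. It had 105.3 ± 20.6 normalized reads in nOIR p14 (n = 6, lowest 78.1, median 107.3, highest 138.1) and 15.1 ± 7.98 in OIR p14 (n = 6, range 6.05 to 26.4, median 15.8). It had 105.4 ± 22.9 in nOIR p17 (n = 6, range 75.1 to 133.8, median 106.4) and 21 ± 15.2 in OIR p17 (n = 8, range 0.99 to 40.9, median 16.7), the lowest mouse, S4, holding 1 read. No OIR mouse reached the level of any nOIR mouse, and the OIR groups overlapped each other, as did the nOIR groups. The means of OIR mice were 14.3% of nOIR at p14 and 19.9% at p17, with log2 differences of -2.88 (SE 0.51) and -2.72 (SE 0.47). From OIR p14 to OIR p17 the log2 difference was 0.15 (SE 0.47), and with 1 mouse left out it ranged from -0.05 (without OIR p14 mouse S3) to 0.58 (without OIR p17 mouse S4, the one with 1 read). None of the other ATP13A genes measured (Atp13a1, Atp13a2, Atp13a3 and Atp13a4) passed the test at either age (limma, adjusted p of 0.05).

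Vtn had the smallest log2 difference from nOIR of the 7 members at both ages. It had 20484 ± 1852 normalized reads in nOIR p14 (n = 6, lowest 17555, median 20354, highest 23135) and 14816 ± 1841 in OIR p14 (n = 6, range 12538 to 17728, median 14642), and 5 of 6 OIR p14 mice lay below all nOIR p14 mice. At p17 it had 26630 ± 3493 in nOIR (n = 6, range 19845 to 29833, median 27573) and 24288 ± 4650 in OIR mice (n = 8, range 18216 to 30828, median 24526), which overlapped widely. The lowest nOIR p17 mouse, S1, stood apart, and the other 5 had 27987 ± 1198. The log2 difference from nOIR was -0.47 (SE 0.12) at p14 and -0.14 (SE 0.11) at p17. Among the 18997 genes compared, the one whose centred log2 values over the 26 mice were nearest to those of Vtn was Gnat1, the rod transducin subunit, at a root mean square difference of 0.11 beside a median of 0.52 over all genes. Gnat1 had mean normalized reads of 366653 in nOIR and 256974 in OIR mice at p14 and of 461598 and 400936 at p17. Photoreceptors are a known source of Vtn in the retina, and the part of rods in the Vtn values was not tested.

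**Figure D2:**
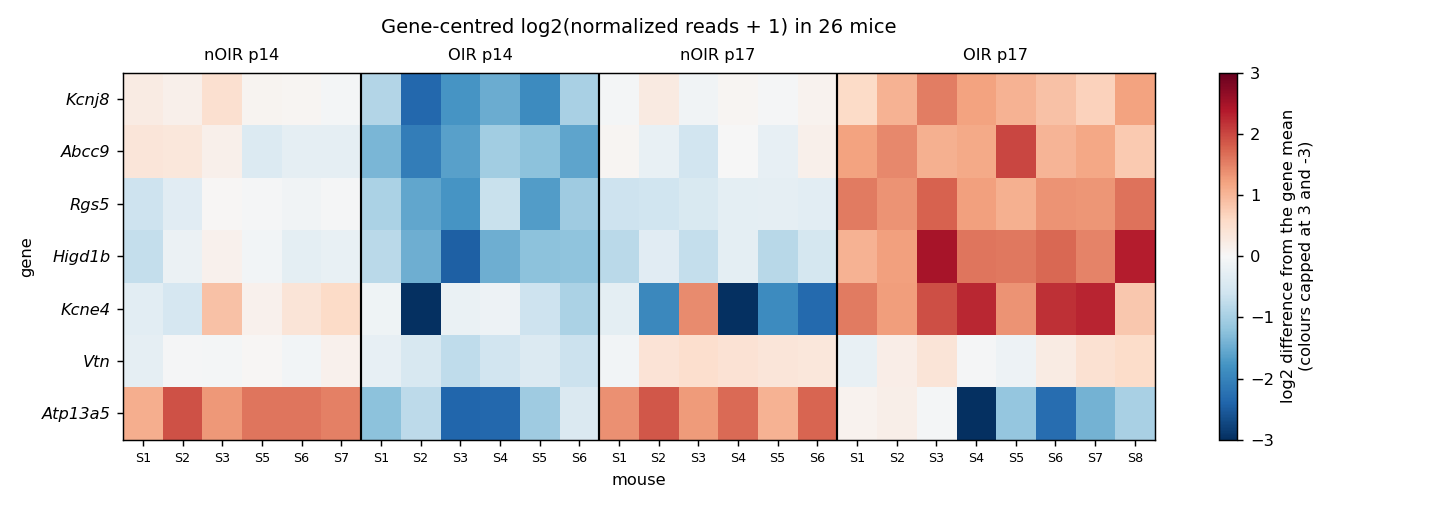
Differences from the mean of each gene in log2(normalized reads + 1) for the 7 genes (rows) in 26 mice (columns, by group), with colours capped at 3 and -3. Kcnj8, Abcc9, Rgs5 and Higd1b are blue in all 6 OIR p14 mice and red in all 8 OIR p17 mice, and Atp13a5 is red in all 12 nOIR mice.

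Between the ages in OIR mice, 6 of the 7 members were higher at p17 without overlap, all but Atp13a5, as were 1.41% of all genes tested. The log2 difference between OIR p17 and OIR p14 was 2.59 (SE 0.18) for Kcnj8, 2.71 (SE 0.18) for Abcc9, 2.69 (SE 0.14) for Rgs5, 3.12 (SE 0.22) for Higd1b, 2.79 (SE 0.60) for Kcne4 and 0.70 (SE 0.11) for Vtn. For Kcne4 it was 2.12 without OIR p14 mouse S2 and 3.39 with a pseudocount of 0.1. The first 3 thus lay within 1 SE of each other. Since the OIR groups are shared with the comparisons above, this is not separate evidence of them.

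Normal maturation from p14 to p17 compares levels of nOIR mice only and was tested, although the spread behind the SE and p was estimated over all 4 groups. In nOIR mice 0 of the 7 members passed (limma, Benjamini-Hochberg adjusted p of 0.05), as against 0.317% of all genes tested. Of the 7, 2 (Vtn and Kcne4) had an unadjusted limma p under 0.05. The share of all genes under that unadjusted limit is not given, so nothing is read from this count. Under edgeR and DESeq2 on the recovered reads 0 of 7 passed as well, and so did 0 of 7 when limma was fitted to the nOIR mice alone. The log2 difference between nOIR p17 and nOIR p14 was -0.12 (SE 0.19, adjusted p = 0.955) for Kcnj8, -0.12 (SE 0.19, adjusted p = 0.954) for Abcc9 and -0.24 (SE 0.15, adjusted p = 0.828) for Rgs5 in limma. It was -0.35 (SE 0.24, adjusted p = 0.850) for Higd1b and -0.01 (SE 0.51, adjusted p = 1.00) for Atp13a5 in the same limma fit. Vtn, with 0.37 (SE 0.12, adjusted p = 0.269), was the only member with a higher mean log2 level at p17, and Kcne4 had -1.58 (SE 0.64, adjusted p = 0.513) in limma. The Kcne4 difference was -0.75 in edgeR on the recovered reads and -2.14 without nOIR p17 mouse S3. For no member did the nOIR ages separate without overlap, as they did for 0.814% (higher) and 0.674% (lower) of all genes. A p above the threshold does not show that the levels were equal.

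Deviations of single mice from their group means, which the choice of members did not use, were compared between members. Of 21 pairs, the deviations of Higd1b and Vtn from their group means correlated over 26 mice with Pearson's r of 0.637 (permutation p = 0.00169, adjusted p = 0.0355) and Spearman's rho of 0.573 (permutation p = 0.00514, adjusted p = 0.0382), and r was 0.605 without the 2 mice farthest from the median of Higd1b. Kcnj8 and Higd1b passed by rho only (0.562, permutation adjusted p = 0.0382) with r of 0.557 (permutation adjusted p = 0.135), and so did Atp13a5 and Kcne4 with rho of -0.522 (permutation adjusted p = 0.0382) and r of -0.322 (permutation adjusted p = 0.145). The subunits Kcnj8 and Abcc9 had r of 0.238 (permutation p = 0.312, adjusted p = 0.789) and rho of 0.244 (permutation adjusted p = 0.620). No pair passed by r when libraries were rescaled to the same total. After adjustment over the 21 pairs no pair passed by r without the 2 farthest mice, or in the OIR p17 mice alone, either. In the OIR p17 mice alone (n = 8) r was 0.658 for Higd1b and Vtn, so the call was lost there while r stayed about as large.

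Over the 26 mice, the members nearest to each other in centred log2 level were Rgs5 and Higd1b, at a root mean square difference of 0.385, followed by Kcnj8 and Abcc9 at 0.418. Atp13a5 was at 1.54 or more from each other member. The gene nearest to the mean of all 7 was Art3, an ADP-ribosyltransferase known from pericytes, at 0.31 beside a median of 0.89 over all genes compared. It was followed by Cldn5, the tight junction protein of endothelium (0.35), Rflnb, a filamin regulator (0.36), Vstm4 (0.43) and Esam, an endothelial adhesion molecule (0.45). Among genes that are not members, Art3 was also nearest to Kcnj8 (0.38) and to Abcc9 (0.52), and Ednra, the endothelin receptor of mural cells, to Rgs5 (0.34) and Higd1b (0.48). Atp13a5 had P2rx2, an ATP-gated channel, and Slco1a4, an organic anion transporter of barrier vessels, as its nearest genes at 0.88 and 0.99, and Kcne4 had Layn at 1.15 and Bgn at 1.16.

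**Figure D3:**
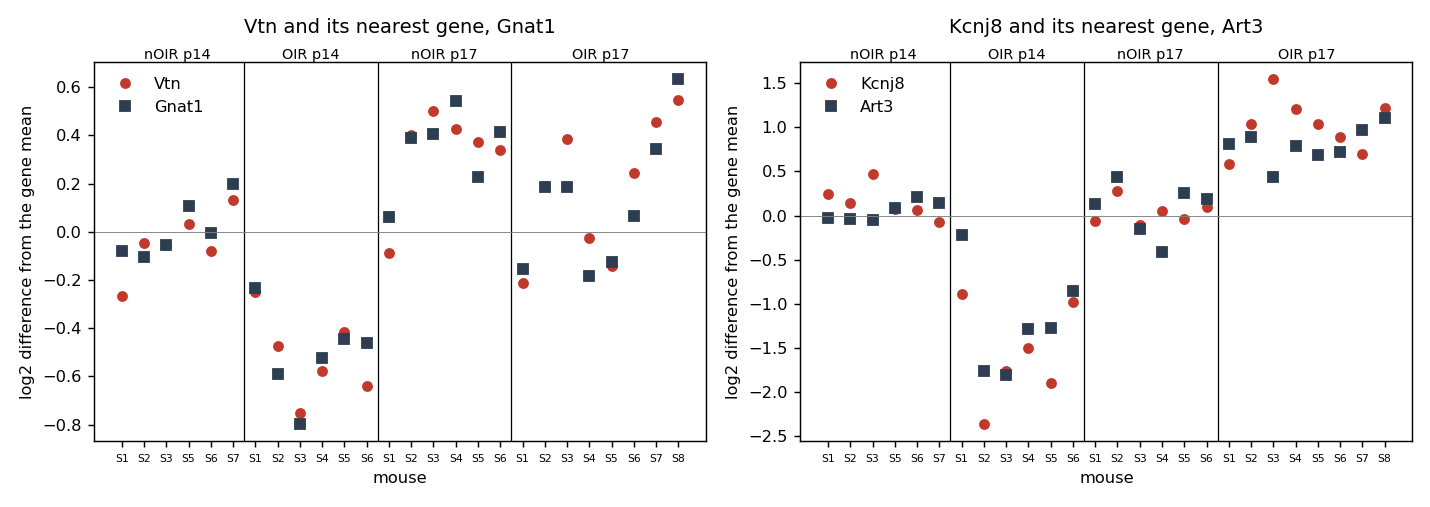
Differences from the gene mean in log2(normalized reads + 1) in single mice for Vtn with Gnat1 (left) and Kcnj8 with Art3 (right), in the 4 groups. The root mean square difference over the 26 mice is 0.11 for Vtn and Gnat1 and 0.38 for Kcnj8 and Art3.

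Other genes of pericytes, 29 listed and all tested, did not share one direction at p14. Against nOIR p14, 3 of 29 rose (3.18% of all genes did) and 6 fell (2.91%) in limma, with a median log2 difference of -0.25. With 1 mouse left out, 2 to 3 rose and 5 to 6 fell. Art3 fell by 1.25 (SE 0.20, adjusted p = 0.000149) and Ednra fell by 0.92 (SE 0.19, adjusted p = 0.00168). Colec12, a scavenger receptor, fell by 2.27 (SE 0.45, adjusted p = 0.00146). For Colec12, 5 OIR p14 mice lay below all nOIR p14 mice and 1 lay above them all. With 1 mouse left out its log2 difference was -2.86 to -1.89. Rgs4 (-0.52) and Gucy1b1 (-0.59), which retinal neurons also express, fell as well. Those that rose were Ndufa4l2, a hypoxia-induced mitochondrial protein, by 3.52 (SE 0.17, adjusted p = 4.12e-14), Mcam (CD146) by 1.30 (SE 0.12, adjusted p = 3.81e-08) and Cd248 (endosialin) by 0.56 (SE 0.17, adjusted p = 0.0466). Pdgfrb, the receptor by which pericytes are recruited, had 714.2 ± 135.7 normalized reads in nOIR p14 and 588.2 ± 189.3 in OIR p14 and did not pass.

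At p17, 15 of the 29 rose (7.39% of all genes did) and 4 fell (5.12%) in limma, with a median log2 difference of 0.97. The 6 with the smallest adjusted p among those that rose were Ndufa4l2 (log2 difference 4.79), Cd248 (3.69), Mcam (2.70), Ednra (2.23), S1pr3, a sphingosine 1-phosphate receptor (1.27), and Cspg4, the NG2 proteoglycan (2.29). Pdgfrb rose by 1.32 (SE 0.17, adjusted p = 1.02e-06), from 707.7 ± 96.7 normalized reads in nOIR p17 to 1798 ± 414 in OIR p17. Gucy1b1 (-0.58), Gucy1a1 (-0.34) and Rgs4 (-0.36) were among those that fell. The difference between the OIR effects at the 2 ages passed for 14 of the 29, all higher at p17 (1.43% of all genes), among them Ednra (3.15), Cd248 (3.13), Colec12 (2.89), Art3 (1.98) and Pdgfrb (1.64). For the members the same difference, given without a test, was 2.70 (SE 0.26) for Kcnj8, 2.84 (SE 0.26) for Abcc9, 2.94 (SE 0.21) for Rgs5, 3.48 (SE 0.33) for Higd1b, 4.37 (SE 0.87) for Kcne4, 0.33 (SE 0.16) for Vtn and 0.15 (SE 0.69) for Atp13a5. In nOIR mice 1 of the 29 changed between the ages, S1pr3, which fell by 0.59 (SE 0.13, adjusted p = 0.0404 in limma), as did 0.158% of all genes.

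**Figure D4:**
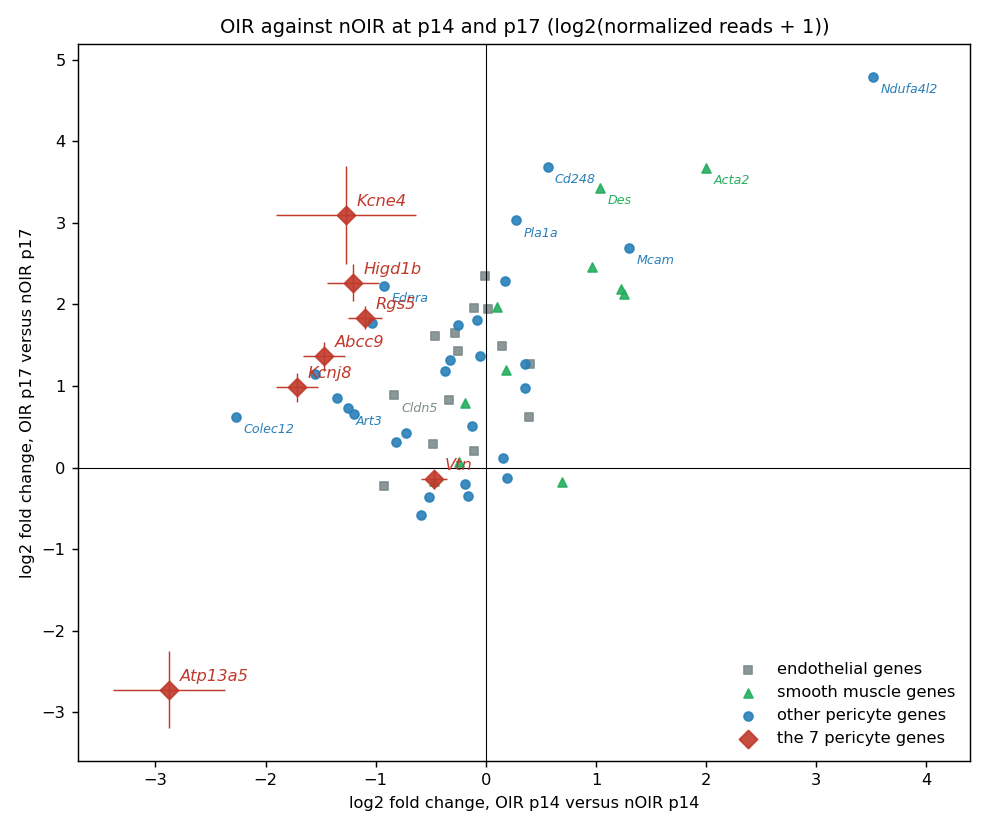
Log2 fold changes of OIR against nOIR at p14 (horizontal) and p17 (vertical) on the log2(normalized reads + 1) scale for the 7 pericyte genes (diamonds with SE) and for other pericyte, smooth muscle and endothelial genes. Kcnj8, Abcc9, Rgs5, Higd1b and Kcne4 lie in the upper left, low at p14 and high at p17, Atp13a5 lies at the lower left, and Acta2, Des and Mcam lie in the upper right. For Kcne4 the OIR and nOIR ranges overlapped at both ages, and its p14 difference was -1.27 (SE 0.64).

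The neighbouring cell types of the vessel wall gave the following values beside those of the members, and of all genes tested 3.18% rose and 2.91% fell at p14 and 7.39% rose and 5.12% fell at p17. Of 11 smooth muscle genes, which arteriolar mural cells and activated pericytes share, 4 rose at p14 in limma (Acta2 by 2.00, Tagln by 1.23, Des by 1.04 and Tpm2 by 0.96) and 8 at p17, those with the smallest adjusted p being Acta2 (3.68), Des (3.43), Myl9 (1.97), Tpm2 (2.46) and Tagln (2.19), and the median of the 11 was 0.69 at p14 and 1.97 at p17. The p14 count was 2 when libraries were quantile normalized, and also without any one of nOIR p14 mice S1, S2 and S5 and OIR p14 mice S1, S4 and S5. Of 14 endothelial genes, 2 rose at p14 (Flt1 by 0.39 and Pecam1 by 0.40) and 2 fell (Cldn5, which fell by 0.83, and Ptprb, which fell by 0.93), with a median of -0.18, and 11 rose at p17, with a median of 1.35. The 2 that rose at p14 became 0 when only the compared groups were fitted and 1 without any one of OIR p14 mice S1, S4, S5 and S6 and nOIR p14 mice S3, S5, S6 and S7, and the 2 that fell became 4 without OIR p14 mouse S4. The difference between the OIR effects at the 2 ages passed in limma for 10 of the 14 endothelial and 5 of the 11 smooth muscle genes. All of these were higher at p17, as were 1.43% of all genes. Its median was 1.52 over the endothelial and 0.99 over the smooth muscle genes, beside 1.42 over the other pericyte genes. It was thus not particular to pericyte genes. No test of the members, which were selected on their levels in OIR mice, was made against these lists.

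Summed levels of marker lists are given as values, and no sum was tested. The endothelial sum had medians of 14407 normalized reads in nOIR and 12649 in OIR mice at p14 and of 11985 and 19756 at p17, with overlapping ranges at p14 (12240 to 16263 in nOIR and 10423 to 16794 in OIR mice) and separate ones at p17 (11226 to 13040 and 15790 to 20888). The rod sum had medians of 1230220 in nOIR and 991520 in OIR mice at p14 and of 1492820 and 1199260 at p17, with ranges that overlapped at both ages (1135870 to 1396230 and 871586 to 1198000 at p14, 1216050 to 1596650 and 1017990 to 1583120 at p17). In OIR p17 the sum of 5 erythrocyte genes was 1227 to 16980, as against 215 to 848 in OIR p14, 98 to 1350 in nOIR p14 and 195 to 1191 in nOIR p17. The sum of 6 microglia genes was 1859 to 3161 in OIR p17 and 991 to 1143 in nOIR p17, and 1267 to 1968 in OIR p14 and 1199 to 1624 in nOIR p14. The sum of 6 genes of the retinal pigment epithelium overlapped between the groups, with 782 to 1276 and 492 to 1584 in OIR and nOIR mice at p14 and 509 to 984 and 273 to 1670 at p17. The sum of 8 fibroblast genes, some of which mural cells share, was 2220 to 5288 in OIR p17 and 792 to 1239 in nOIR p17, and 1118 to 2995 and 1051 to 1556 in OIR and nOIR mice at p14. The sum of 5 Müller cell genes was 26512 to 42912 in OIR p17 and 41773 to 49758 in nOIR p17, and 4 of the 5 fell in limma at p14 and at p17. At p14 it was 30482 to 41265 in OIR and 40276 to 53381 in nOIR mice. The lens sum of 4 genes varied within every group, from 210 to 25112 in OIR p17. No gene of these lists was at 0 in all mice of a group. The part of these cell types in the levels of the members was not tested.

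Relatives and partners of the members did not share one direction. Of 28 listed, 27 were in the table and 26 were tested. In limma 8 rose and 4 fell at p14 (3.18% and 2.91% of all genes tested), and 9 rose and 5 fell at p17 (7.39% and 5.12%). Among regulators of G protein signalling close to Rgs5, Rgs4, Rgs8 (log2 differences -0.42 and -0.51) and Rgs16 (-0.51 and -0.47) were lower in OIR at p14 and p17, and Rgs13 (-1.18) at p17. Rgs1 rose at p14 (2.47) and Rgs2 at p17 (0.96), while Rgs3 did not pass at either age and Rgs18 was under the minimum mean. Rgs1 was near 0 in nOIR p14, with a mean of 0.51 normalized reads beside 7.42 in OIR p14. The size of its difference thus depends on the pseudocount. Higd1a, the ubiquitous relative of Higd1b, rose by 0.53 (SE 0.15, adjusted p = 0.0259) at p14 and by 0.74 (SE 0.14, adjusted p = 0.00021) at p17, and Higd2a did not pass.

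Among the KCNE subunits, Kcne3 rose by 3.32 (SE 0.59, adjusted p = 0.000451) at p14 and by 5.56 (SE 0.56, adjusted p = 1.12e-08) at p17 in limma. At these ages the mean of Kcne4 was below and then above that of nOIR mice. Kcne3 was near 0 in nOIR mice, with medians of 0.97 normalized reads at p14 and 0 at p17. Its medians in OIR mice were 25.5 and 72.1, so the sizes of its differences depend on the pseudocount. Kcne1 (2.44) and the channel Kcnq1 (2.28) rose at p17, Kcne2 rose at p14 (0.47) and Kcne1l fell at both ages (-0.95 and -0.82). Among the partners of vitronectin, Plaur (the urokinase receptor, 3.27 and 4.50) and the integrin chains Itgb3 (2.15 and 2.14) and Itgb8 (1.02 and 0.67) rose at p14 and p17. Itgav and Itgb5 did not pass. The ligand itself, Vtn, was at 72.3% of nOIR at p14 and at 91.2% at p17.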

How the data were processed

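Retinal RNA was extracted at a genomics core facility with the RNeasy Micro Kit. It was amplified with the SMARTer kit and sequenced as libraries that do not keep the strand. Per the labels and methods, the authors mapped reads with STAR 2.7.8a, counted them with featureCounts 2.0.1 on GENCODE M28 genes and divided the counts by DESeq2 1.34 size factors in R 4.0.3. The deposited signal is these normalized reads. The table also holds the authors' group means, log2 fold changes and adjusted p-values from their DESeq2 comparisons, which were not used. Whole reads were recovered by dividing by 1 step per mouse (100% whole within 0.001). Depth was 17029536 to 33593428 reads per mouse (median 30024568). Printed errors are SDs over mice or limma SEs, and the level allowed by a count of 0 covers counting error only.

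The table was fitted with limma 3.58.1 (R 4.3.3, lmFit, eBayes with trend) on log2(normalized reads + 1) over the 27137 genes with a mean of at least 1, the 4 groups in 1 fit, with Benjamini-Hochberg adjustment over all genes tested (called at an adjusted p under 0.05). For low genes a fold change on this scale can be smaller or larger than under other settings. The log2 difference of Kcne4 at p14 was -1.27, beside -1.84 with a pseudocount of 0.1. At p17 it was 3.10, beside 2.32 in edgeR on the recovered reads. The script was tested on simulated data. No 2 mice of a group differed by less than the sampling noise. The members and the gene lists were chosen with earlier results of these data known. Of the lists, all 7 members, all relatives and partners, and the called genes (of longer lists, the 6 with the smallest adjusted p in each direction) were to be named, with the genes nearest to the members by the root mean square difference of centred log2 values. Some listed genes are counted but not reported here by name. Pdgfrb was named with its p14 value after it was seen. Permutations within groups numbered 100000. Promoters were taken by symbol from RefSeq (GRCm38.p6), which is not the build of the counts, so coordinates refer to RefSeq only. Alternatives were edgeR 4.0.16 and DESeq2 1.42.0 on the recovered reads, other filters, pseudocounts, scalings and thresholds, a replicate block, a Cryaa covariate, mouse S4 included and each mouse left out.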

Additional observations from a re-analysis of the deposited data

Results flagged for a closer look

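Among 28 sets of a member and a group checked for a mouse far from the others by Dixon's test, 3 had one, where chance gives about 1 in 20. These were Abcc9 in OIR p17 mouse S5 (1105 normalized reads), Vtn in nOIR p17 mouse S1 (19845) and Kcne4 in nOIR p17 mouse S3 (54.7). In nOIR p14 mouse S4, which was left out of the comparisons, Abcc9 had 632.6 normalized reads, above the other 6 nOIR p14 mice (206.7 to 352.5), and with it the group had 328.0 ± 146.9 (n = 7).

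For 4 members every OIR mouse lay below every nOIR mouse at p14 (1.86% of all genes tested) and above at p17 (3.9%), the share of genes that did both not being counted, so that the OIR effect had opposite directions at the 2 ages. The effect at p17 minus that at p14 was 2.70 for Kcnj8, 2.84 for Abcc9, 2.94 for Rgs5 and 3.48 for Higd1b in log2, and this difference was not tested, since these levels chose the members. Among the other pericyte genes the same difference passed the limma test (adjusted p of 0.05) for Pdgfrb (1.64), Cspg4 (2.11), Notch3 (1.89), Mcam (1.40), Cd248 (3.13), Ndufa4l2 (1.28), Art3 (1.98), Gper1 (1.42), Pla1a (2.76), S1pr3 (0.91), Ednra (3.15), Heyl (2.00), Carmn (2.81) and Colec12 (2.89). Among the relatives it passed for Rgs2 (0.88). It also passed for 10 of 14 endothelial and 5 of 11 smooth muscle genes, all higher at p17, beside 1.43% of all genes tested.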

How the results depend on the processing

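No member whose groups did not overlap changed direction against nOIR under any alternative run, including mouse S4, the Cryaa covariate and each mouse left out. With a pseudocount of 0.1 the median of the members at p14 was -1.48, in place of -1.27, and leaving out 1 mouse gave -1.46 to -1.14. The -1.27 is the value of Kcne4, which was -1.84 with that pseudocount. The median difference between OIR p17 and OIR p14 was 2.43 to 2.80 with 1 mouse left out, the lowest without OIR p14 mouse S2. The 4 smooth muscle genes that rose at p14 became 2 with all genes above 0 tested, with quantile normalization, with S4 included and at an adjusted p of 0.01, and 2 to 4 with 1 mouse left out (2 without nOIR p14 S1, S2 or S5 or OIR p14 S1, S4 or S5). The 2 endothelial genes that rose at p14 became 0 when only the compared groups were fitted and at an adjusted p of 0.01, and 1 to 2 with 1 mouse left out. The 2 that fell became 4 with S4 included and 1 at an adjusted p of 0.01, and 2 to 4 with 1 mouse left out (4 without OIR p14 S4). At an adjusted p of 0.01, 7 relatives and partners passed at p14 in place of 12. The 1 pair of members that varied together by Pearson's r became 0 when libraries were rescaled to the same total, in the OIR p17 mice alone and when each pair was taken without the 2 mice farthest from the median. For that pair, Higd1b and Vtn, r was 0.658 in the OIR p17 mice and 0.605 without the 2 farthest mice. Mice share replicate numbers, which do not pair them by the labels. The correlation of the deviations of same-numbered mice was below 0 for at least 1 number in every pair of groups (lowest -0.582), with medians from -0.31 to 0.452, the highest for nOIR p14 with OIR p17. With the replicate number as a block, the median of the members was -1.23 at p14 and 1.46 at p17, 0 members passed in nOIR mice, and 11 in place of 14 other pericyte genes differed between the ages. The causes of these shifts were not tested. Depth limits Kcne4 and Atp13a5 most, whose lowest mice held 0 and 1 reads.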
